A study of Agaricus bisporus with 16 samples.

Results

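MnP (gene 221245, locus tag AGABI2DRAFT_221245) is the gene of the button mushroom Agaricus bisporus that the RefSeq gene table names for manganese peroxidase. It was found in the tables by this identifier, and it is 1 of the 9520 genes listed in all 16 libraries. The libraries come from compost colonised by mycelium of A15, the strain in commercial cultivation, or of 219 30P, 245 AMA-7 or 065 BP-8. All crates held the same kind of commercial compost of straw and manure, were spawned with colonised wheat kernels and were later covered with a casing layer. Compost from the middle of the crates was taken on day 27 after spawning, when mushroom primordia (pins) form, and on day 39, at the first flush of mushrooms. With 4 strains on 2 days there are 8 groups, and every group has 2 libraries. The aim given for the series is to compare strains and stages with regard to compost components that A15 uses poorly.

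Manganese peroxidase is a secreted haem enzyme of fungi that degrade wood and litter. It uses hydrogen peroxide to oxidise manganese(II) to manganese(III), and the chelated manganese(III) diffuses into the substrate and oxidises the phenolic parts of lignin. Laccases, which are multicopper oxidases, act on similar phenols with oxygen as the oxidant. In A. bisporus both kinds of enzyme are known from mycelium growing in compost, where lignin shields the cellulose and hemicellulose of straw.

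Expression is given as 1 number for every gene in a library and was taken to be in FPKM, a measure of fragments scaled by transcript length and library size. The values of a library sum to between 832823 and 913010 FPKM. Read counts are not given. A rough estimate from the spacing of low FPKM values put the lowest value of MnP at about 65 reads. That estimate used gene spans with introns in place of transcript lengths, which makes it uncertain. The A15 files list 9520 genes and those of the other strains 10438, so any comparison with A15 is also one between tables that were made or filtered separately. Whether the duplicates of a group were taken from different crates is not stated, and the p-values therefore reflect the spread between these samples alone, which could be technical. In bulk RNA, less MnP transcript per hypha and fewer hyphae that express the gene cannot be told apart.

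MnP was higher at pinning than at the first flush in every strain. On day 27 its level was 528 and 389.8 FPKM in 219 30P, 282 and 296 FPKM in 065 BP-8, 135 and 269 FPKM in A15, and 79.7 and 51.4 FPKM in 245 AMA-7. On day 39 it was 42.5 and 66.0 FPKM in 065 BP-8, 27.6 and 38.9 FPKM in A15, 13.1 and 12.01 FPKM in 245 AMA-7, and 3.87 and 7.54 FPKM in 219 30P. Within each strain both libraries of day 39 lay below both of day 27, as was so for 14.9% of the 8818 genes tested. Across strains the days overlapped, because one day 39 library of 065 BP-8 (66.0 FPKM) stood above one day 27 library of 245 AMA-7 (51.4 FPKM). The strain with the highest MnP at pinning, 219 30P, had the lowest at the first flush.

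**Figure D1:**
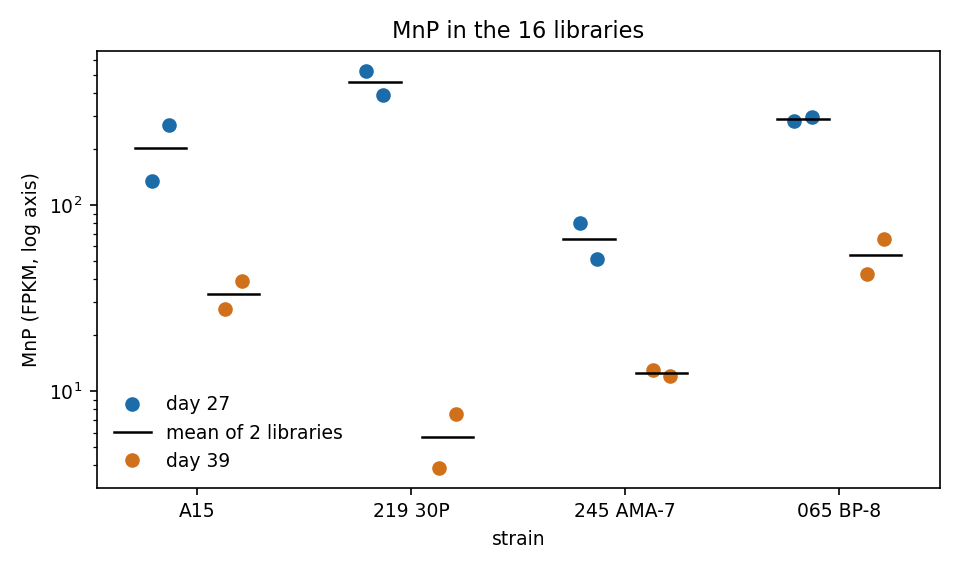
MnP level in FPKM (log axis) in each of the 16 libraries, by strain and day, with the mean of the 2 libraries of a group as a line. In every strain both day 39 libraries lie below both day 27 libraries, and 219 30P holds the highest (528 FPKM) and the lowest (3.87 FPKM) values.

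Ordered by mean level, the groups ran from 219 30P on day 27 (459 ± 97.4 FPKM, SD, n = 2) to 219 30P on day 39 (5.705 ± 2.595 FPKM). Between them stood 065 BP-8 (289 ± 10.1 FPKM), A15 (202 ± 94.6 FPKM) and 245 AMA-7 (65.6 ± 20.0 FPKM) on day 27. They were followed by 065 BP-8 (54.2 ± 16.6 FPKM), A15 (33.25 ± 7.95 FPKM) and 245 AMA-7 (12.5 ± 0.757 FPKM) on day 39. Some neighbours in this order did not differ beyond their spread. These were 219 30P and 065 BP-8 on day 27, 065 BP-8 and A15 on either day, and 245 AMA-7 on day 27 with 065 BP-8 on day 39, whose libraries overlap. Within its library, MnP ranked between 223 and 2659 from the top on day 27, and between 2266 and 7711 on day 39. The highest share of a library's summed FPKM that it took was 0.0612%, in 219 30P on day 27.

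In 6 of the 8 groups the duplicates of MnP were further apart than those of at least 89.9% of genes. The exceptions were 245 AMA-7 on day 39, where 51.9% of genes had closer duplicates, and 065 BP-8 on day 27, where 18.4% had. The values of MnP differed 1.99-fold in A15 on day 27, 1.95-fold in 219 30P on day 39 and 1.05-fold in 065 BP-8 on day 27. On the scale of log2(FPKM + 1), used for every test, the residual SD of MnP was 0.42, against a median of 0.15 over all genes tested. The limma fit moves the SD of a gene toward that of genes at a like level, 0.12 for MnP. The SE of 0.35 given below is therefore smaller than the duplicates of MnP alone would give.

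The comparison of day 39 with day 27 within each strain asked how expression changed from pinning to the first flush. MnP fell in all 4 strains, and the fall in 219 30P was the steepest. The change was -6.14 ± 0.35 (log2, SE) in 219 30P, a 70.5-fold fall (limma, 2 libraries per group, Benjamini-Hochberg (BH) adjusted p = 4.81e-08). The folds given for these changes, and for their mean below, are those of FPKM + 1 and not of FPKM itself. In 219 30P the size depended on the added constant. The log2 change there was -6.36 with 0.1 FPKM added in place of 1, and -5.44 with 5 FPKM added. In A15 the change was -2.50 ± 0.35 (5.67-fold, BH-adjusted p = 5.64e-05). In 065 BP-8 it was -2.42 ± 0.35 (5.37-fold, BH-adjusted p = 6.75e-05), and in 245 AMA-7 -2.26 ± 0.35 (4.81-fold, BH-adjusted p = 0.000121). Falls past the threshold of 0.05 were frequent, at 34.8% of the genes tested in 219 30P, 28.1% in 065 BP-8, 25.3% in 245 AMA-7 and 21.0% in A15. Falls as large as those of MnP were not. Counted from the largest fall among the 8818 genes, MnP stood at place 6 in 219 30P, 52 in A15, 71 in the strain 065 BP-8 and 112 in the strain 245 AMA-7.

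In the mean of the 4 strains the change was -3.33 ± 0.17, a 10.1-fold fall (limma, BH-adjusted p = 2.79e-09), at place 15 from the largest fall; 32.5% of genes fell in this comparison. An exact two-sided permutation of the days within each strain gave p = 0.00154, the smallest that its 1296 arrangements allow. Of the genes tested, 10.9% fell in all 4 strains. A change of -2.26 or lower that also passed the threshold in each strain was found for 18 genes (0.204%). The cut is the smallest fall that MnP had, which places MnP among them. The median change of all genes was 0.24 in A15, 0.16 in 245 AMA-7, 0.07 in 065 BP-8 and -0.07 in 219 30P. With libraries rescaled by their median ratio, which brings these medians close to 0, MnP changed by -2.75, -2.43, -2.50 and -6.05 in the same order.

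The size of the fall differed between strains (F test in limma, BH-adjusted p = 9.82e-05), in a test that 70.7% of genes passed. The difference lay with 219 30P. Its day change was below that of A15 by a log2 difference of -3.64 (95% interval -4.71 to -2.56, BH-adjusted p = 0.000127), and a lower day change than in A15 was called for 38.0% of genes. Set against 219 30P, the day change was higher by 3.87 (2.80 to 4.95) in 245 AMA-7 and by 3.71 (2.64 to 4.79) in 065 BP-8. The BH-adjusted p of these limma contrasts was 7.93e-05 and 0.000312, with 31.9% and 20.5% of genes called higher. Among the other 3 strains no pair passed. The differences in day change were 0.24 (95% interval -0.84 to 1.31; 30.7% of genes called) for 245 AMA-7 against A15, 0.08 (-0.995 to 1.15; 39.1%) for 065 BP-8 against A15, and -0.16 (-1.23 to 0.91; 32.6%) for 065 BP-8 against 245 AMA-7.

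**Figure D2:**
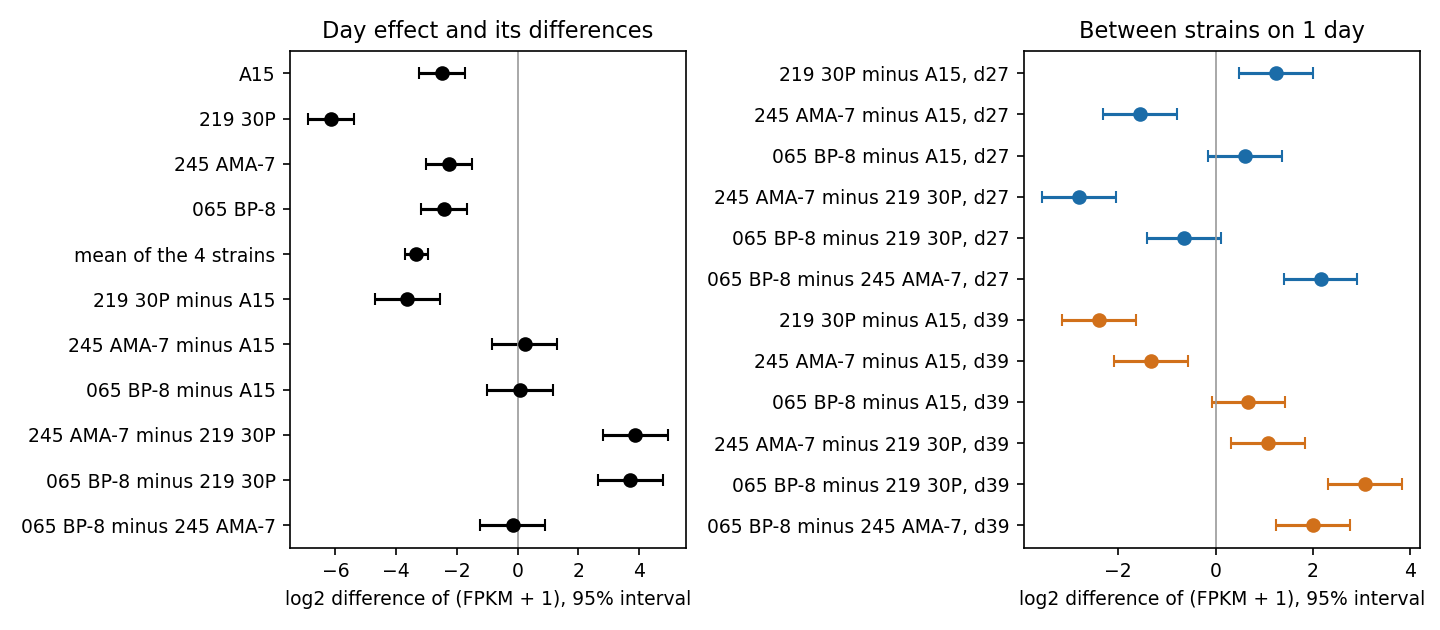
Log2 differences of MnP with 95% intervals from the limma fit. On the left are the day 39 minus day 27 change per strain, its mean, and differences of that change between strains. On the right are strain differences on day 27 (blue) and day 39 (orange). The intervals of 219 30P (-6.90 to -5.38) do not reach those of the other strains.

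Comparing strains on the same day asked how the isolates differ at each stage. At pinning 245 AMA-7 had less MnP than each of the others, and 219 30P had the most. MnP in 245 AMA-7 was lower than in 219 30P by a log2 difference of -2.80 ± 0.35 (limma, BH-adjusted p = 5.03e-05; 28.0% of genes lower) and lower than in A15 by -1.56 ± 0.35 (BH-adjusted p = 0.00394; 17.4% lower). It was higher in 065 BP-8 than in 245 AMA-7 by 2.15 ± 0.35 (BH-adjusted p = 0.000357; 25.9% of genes higher). In 219 30P it was above A15 by 1.25 ± 0.35 (BH-adjusted p = 0.0131; 27.5% higher).

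Both differences from A15 at pinning rest in part on its duplicates. Without A15 replicate 1 of day 27 the difference of 219 30P was 0.75 (limma, BH-adjusted p = 0.137), and without replicate 1 of 219 30P it was 1.03 (0.0943). Without A15 replicate 2 of day 27, that of 245 AMA-7 was -1.06 (BH-adjusted p = 0.0525). Between 065 BP-8 and A15 the difference was 0.60 (95% interval -0.16 to 1.36, BH-adjusted p = 0.187; 43.1% of genes called). It was 1.09 (BH-adjusted p = 0.0476) without A15 replicate 2. Between 065 BP-8 and 219 30P it was -0.65 (-1.41 to 0.11, BH-adjusted p = 0.192; 26.8%).

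At the first flush 065 BP-8 and A15 had the most MnP and 219 30P the least. MnP in 219 30P was below A15 by -2.39 ± 0.35 (limma, BH-adjusted p = 9.62e-05), where 40.3% of genes were lower. In 245 AMA-7 it was below A15 by -1.32 ± 0.35 (BH-adjusted p = 0.00705; 29.3% lower), a call lost without A15 replicate 2 of day 39 (-1.08, BH-adjusted p = 0.0634). In 065 BP-8 it was above 219 30P by 3.06 ± 0.35 (BH-adjusted p = 2.53e-05; 28.5% higher) and above 245 AMA-7 by 2.00 ± 0.35 (BH-adjusted p = 0.000959; 16.3% higher). The first of these stood at place 24 of 8818 from the largest difference. The gap of 1.07 ± 0.35 between 245 AMA-7 and 219 30P (BH-adjusted p = 0.0204; 36.3% higher) was lost under several alternatives, as with median-ratio scaling (0.89, BH-adjusted p = 0.0523). Between 065 BP-8 and A15 the difference was 0.68 (-0.08 to 1.43, BH-adjusted p = 0.132; 46.2% of genes called). All these pairs draw on the same 8 libraries of a day and are not independent of each other.

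The laccase genes lcc1 and lcc2 were set beside MnP as counterparts in the attack on phenols; they were picked from the 6 laccases in the files with earlier results known, and both are among those that fell. FPKM is scaled per length, so that levels of different genes can be set side by side. At pinning lcc1 stood at 1.62 to 4.32 times the FPKM of MnP, and lcc2 at 4.30 to 8.0045 times. At the first flush the strains parted. In A15, lcc1 was 740 and 625 FPKM where MnP was 27.6 and 38.9 FPKM, 26.8 and 16.1 times the level of MnP. In 219 30P it was 13.7 and 16.9 FPKM, which was 3.53 and 2.24 times MnP. In 245 AMA-7 the ratio of lcc1 to MnP was 0.983 and 1.23, and in 065 BP-8 it was 1.17 and 0.963. MnP was thus near the level of lcc1 in both of these strains and far below it in A15. The ratio of lcc2 to MnP at the first flush was 59.4 and 47.1 in A15, 41.2 and 29.0 in 219 30P, 12.3 and 12.5 in 245 AMA-7, and 5.37 and 4.29 in 065 BP-8.

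The ratio of MnP to lcc1 showed no common change from day 27 to day 39 (mean log2 change -0.14, exact two-sided permutation within strains, p = 0.733, also after BH adjustment over the 2 ratios). It changed by -3.11 in A15, 0.08 in 219 30P, 0.59 in 245 AMA-7 and 1.89 in 065 BP-8. In 219 30P the sign depended on the added constant, with -0.07 for 0.1 FPKM and 0.46 for 5 FPKM. The steep fall of MnP in 219 30P was shared by lcc1, which changed by -6.22 ± 0.40 there, by -2.85 in 245 AMA-7 and by -4.32 in 065 BP-8. In A15, where MnP fell, lcc1 did not pass (0.60 ± 0.40, limma, BH-adjusted p = 0.209). Without A15 replicate 2 of day 27, lcc1 passed with a rise of 1.21 (BH-adjusted p = 0.0279). For lcc2 the changes were -3.59 ± 0.37 in 219 30P, -1.59 in 245 AMA-7, -2.87 in 065 BP-8 and 0.27 in A15, the last not passing (limma, BH-adjusted p = 0.544). The ratio of MnP to lcc2 fell by 1.39 in the mean (exact permutation, p = 0.0185, BH-adjusted 0.037). Because lcc2 was picked with earlier results of these data known, this p is a description and not independent support. The ratio was lower on day 39 in 3 of 4 strains, with -2.77 in A15, -2.55 in 219 30P and -0.68 in 245 AMA-7, against 0.45 in 065 BP-8. With a pseudocount of 5 FPKM the fall was 1.10 and the BH-adjusted p of the exact permutation was 0.0648. Differences between strains in these ratios were not tested. Reads that fit several laccase genes may have been shared out among them, which leaves the level of each laccase uncertain. Between the duplicates of a group, the library with more MnP also had more lcc2 in all 8 groups, which was so for 49 of the 6787 genes compared (0.722%). This count was chosen after the values had been seen.

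**Figure D3:**
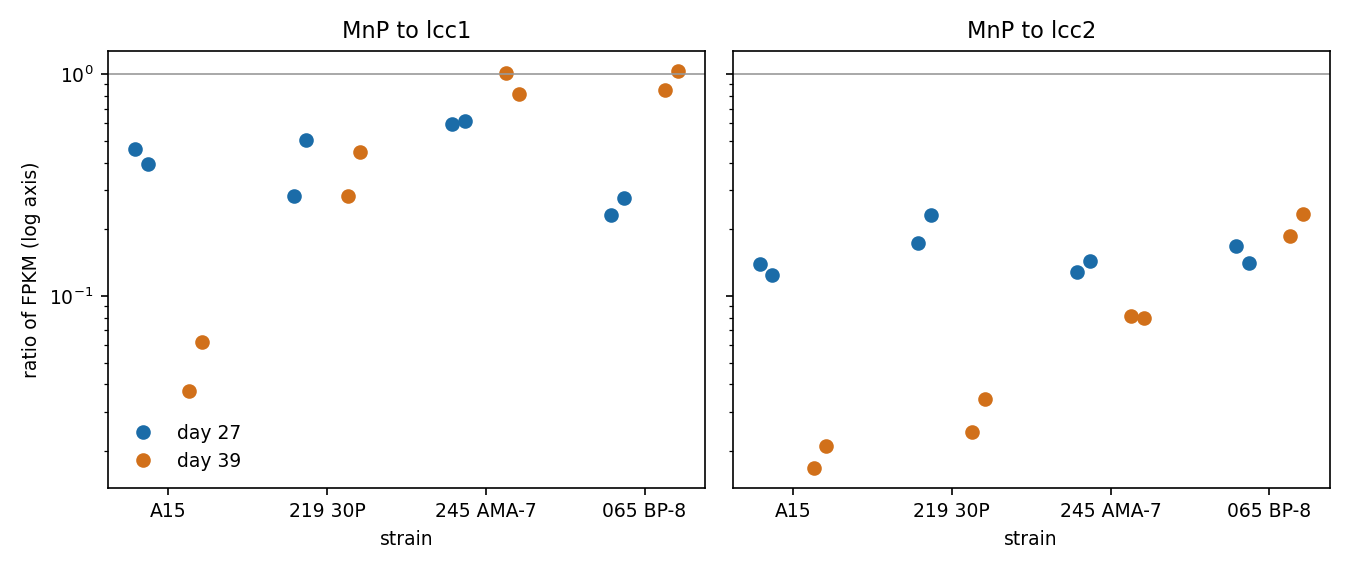
Ratio of the FPKM of MnP to that of lcc1 (left) and lcc2 (right) in each library, on a log axis, by strain and day; the line marks a ratio of 1. MnP to lcc1 is between 0.231 and 0.616 in all day 27 libraries, and on day 39 it is 0.0373 and 0.0622 in A15 but 0.815 to 1.04 in 245 AMA-7 and 065 BP-8.

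Other genes with a role in lignin attack or in handling oxygen and peroxide were found by symbol. Of 12 laccase symbols in the RefSeq table, 6 are in the files, and in the mean of the strains 3 rose, 2 fell and lcc12 did not pass (0.55 ± 0.48, limma, BH-adjusted p = 0.310). The duplicates of lcc12 in 065 BP-8 on day 27 were far apart (346 ± 442 FPKM, SD, n = 2), and without replicate 1 of that group lcc12 passed as a rise of 1.08 (BH-adjusted p = 0.00096). Their median change was 0.90, against 0.11 over all genes, of which 44.9% rose and 32.5% fell. The laccase lcc3 ran opposite to MnP over the 16 libraries (Pearson's r = -0.92, a description). It rose by 1.38 ± 0.09 in the mean of the strains, between 4.03 and 31.3 FPKM. In 065 BP-8 alone lcc3 did not pass (0.33, limma, BH-adjusted p = 0.133). lcc9 (1.46 ± 0.15) and lcc10 (1.24 ± 0.14) were the others that rose in the mean. Both passed in 245 AMA-7 (3.30 and 3.02) and in 065 BP-8 (1.37 and 1.12). Neither passed in A15 (0.51 and 0.41, limma, BH-adjusted p = 0.167 and 0.234) or 219 30P (0.66 and 0.43, 0.0803 and 0.215). In 219 30P lcc9 did pass with median-ratio scaling (0.755, limma, BH-adjusted p = 0.0498) and with quantile normalization (0.741, 0.0434). The highest group mean of lcc9 was 329 ± 20.5 FPKM, in 245 AMA-7 on day 39, where MnP was at 12.5 ± 0.757 FPKM.

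Catalases remove hydrogen peroxide, the oxidant that manganese peroxidase needs. Of 3 symbols, CAT1 and CAT3 are in the files, both at low levels. CAT3 rose in the mean by 0.70 ± 0.08 (limma, BH-adjusted p = 2.16e-06), with 0.98 in 219 30P and 1.01 in 245 AMA-7. In A15 it rose by 0.51 as deposited, but with quantile normalization its change there was -0.05 (BH-adjusted p = 0.776). In 065 BP-8 CAT3 did not pass (0.32, limma, BH-adjusted p = 0.0829). CAT1 did not pass in the mean (0.14 ± 0.08, BH-adjusted p = 0.132). Among single strains CAT1 passed in 219 30P alone (0.60 ± 0.16, limma, BH-adjusted p = 0.00645). That call was lost without replicate 2 of day 27 of 219 30P, where the rise was 0.48. It was also lost without its replicate 1 of day 39, where the rise was 0.53. In A15 CAT1 changed by -0.12 as deposited and by -0.64 with quantile normalization (limma, BH-adjusted p = 0.00442). AOX, the alternative oxidase of mitochondria, fell in the mean by 1.29 ± 0.24 and most in 245 AMA-7 (-2.35 ± 0.49). It did not pass in A15 (-0.98, limma, BH-adjusted p = 0.0984) or 219 30P (-0.24, BH-adjusted p = 0.683). In A15 its fall did pass with median-ratio scaling (-1.226, limma, BH-adjusted p = 0.0443) and with quantile normalization (-1.225, BH-adjusted p = 0.041). AOX was at 152 ± 142 FPKM (SD, n = 2) in 065 BP-8 on day 27, a spread that enters its tests in all strains. With 1 or the other library of that group left out, AOX still changed by -0.98 in A15, and this fall passed. Its change of -1.605 in 065 BP-8 became -0.47 (BH-adjusted p = 0.0579) without replicate 1 of day 27. Fet3 encodes a multicopper oxidase that serves iron uptake, and it rose in all 4 strains, by 1.91 to 4.35. Rises were called for 41.3% of genes in A15, 27.6% in 219 30P, 37.8% in 245 AMA-7 and 34.5% in 065 BP-8.

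Of the phenylpropanoid enzymes 3 of 4 symbols are in the files. PAL2, a phenylalanine ammonia-lyase gene, fell in all 4 strains, with changes of -0.89 ± 0.22 in A15, -0.82 in 219 30P, -0.92 in 245 AMA-7 and -1.78 in 065 BP-8. The call in 219 30P was lost without its replicate 2 of day 27 (-0.67, BH-adjusted p = 0.0567) or its replicate 1 of day 39 (-0.66, BH-adjusted p = 0.0604). PAL1, its paralogue by name, rose in the mean by 0.91 ± 0.08. The rise of PAL1 passed in 219 30P (0.76), 245 AMA-7 (1.63) and 065 BP-8 (0.91). In A15 it did not pass (0.35, limma, BH-adjusted p = 0.0822), though it did with a replicate block (0.0397). C4H1, named for cinnamate 4-hydroxylase, rose in the mean by 0.64 ± 0.16 at low levels. Among single strains C4H1 passed in 219 30P (2.01 ± 0.32), and not in A15 (0.75, limma, BH-adjusted p = 0.0566), 245 AMA-7 (0.11, 0.775) or 065 BP-8 (-0.32, 0.404). No gene in the table carries a symbol that starts with sod or hem, the search terms for superoxide dismutases and haem synthesis.

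In the RefSeq gene order, the 3 genes on one side of MnP fell in every strain, as 10.9% of all genes tested did, and none of the 3 on the other side did. The table gives none of these 6 genes a name. Next to MnP, AGABI2DRAFT_192500 fell most in 219 30P (-1.44 ± 0.12), from 362 and 413 FPKM to 142 and 142 FPKM, and by -0.49 to -0.83 in the other strains. Its profile over the 16 libraries had an r of 0.89 with that of MnP. The next 2 genes, AGABI2DRAFT_192499 and AGABI2DRAFT_221237, were strongly expressed, up to 1286 and 1169 FPKM. They fell most in A15, by -1.72 ± 0.13 and -1.92 ± 0.11, and least in 219 30P, by -0.93 and -0.72, unlike MnP. Their r with MnP was 0.77 and 0.72.

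On the other side, AGABI2DRAFT_192501 fell in 219 30P (-1.21 ± 0.13, from 38.8 and 38.8 FPKM to 16.3 and 16.1 FPKM) and in 065 BP-8 (-0.96 ± 0.13). Like MnP it fell most in 219 30P, and its r with MnP was 0.65. It did not pass in 245 AMA-7 (-0.09, limma, BH-adjusted p = 0.563). In A15 it rose by 0.38 as deposited, a call lost with median-ratio scaling (0.13, BH-adjusted p = 0.379). AGABI2DRAFT_204264 rose in the mean by 0.53 ± 0.07. AGABI2DRAFT_69571, at 4.72 to 9.58 FPKM, changed by 0.19 in the mean as deposited and by -0.10 with quantile normalization. No neighbour changed by as much as MnP in any strain, and the next largest value in 219 30P was the -1.44 of AGABI2DRAFT_192500.

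**Figure D4:**
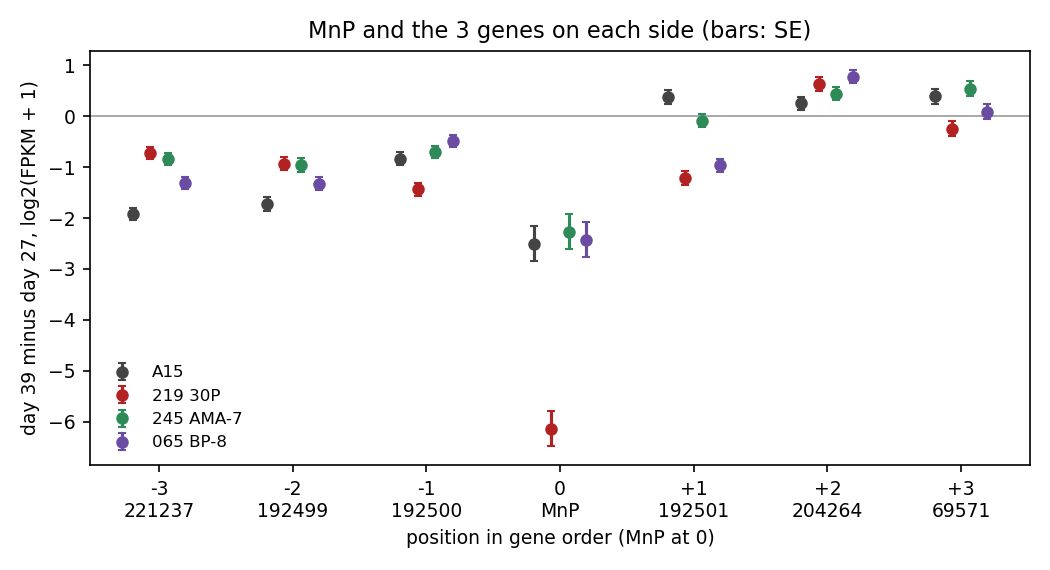
Change from day 27 to day 39 (log2, with SE) of MnP and of the 3 genes on each side in gene order, by strain; the numbers under the axis are the identifiers. The 3 genes to the left lie below 0 in all 4 strains, and MnP in 219 30P (-6.14) lies far below every neighbour.

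Pattern likeness was measured by Pearson's r of log2(FPKM + 1) with MnP over the 16 libraries, for the 6787 other genes whose mean reached 10 FPKM. It is a description, because the libraries share strains and days; the median r was -0.03, and 80 genes reached 0.9. The gene most like MnP was NdufA9, a subunit of complex I of the respiratory chain (r = 0.97). NdufA9 moved over a much narrower range, from 173 and 179.7 FPKM to 103 and 116 FPKM in 219 30P, a change of -0.69 ± 0.08. Its day change differed between strains as deposited, but not with median-ratio scaling (F test in limma, BH-adjusted p = 0.515). The 4 next were AGABI2DRAFT_117829 (0.96), AGABI2DRAFT_187036 (0.95), AGABI2DRAFT_68812 (0.95) and AGABI2DRAFT_193432 (0.95), none with a name.

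Of these, AGABI2DRAFT_68812 came nearest to MnP in size. It fell from 77.7 and 53.1 FPKM to 5.00 and 4.23 FPKM in 219 30P (-3.54 ± 0.26), by -2.41 in 065 BP-8, by -1.68 in A15 and by -1.29 in 245 AMA-7. Among the 84 other genes with a name at this level, NdufA9 was followed by OSCP/ATP5 of ATP synthase (r = 0.95) and the heat shock gene hspD (0.89). The laccases lcc1 (0.86) and lcc2 (0.82) stood at places 245 and 466. By Spearman's rho only 1 of the 5 genes stayed among the 5 most like MnP, and by Pearson's r over the 8 group means 3 did.

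When the mean of each day was subtracted first, the order changed. What remained were strain differences within a day and differences between duplicates. AGABI2DRAFT_191153 led (r = 0.95), before AGABI2DRAFT_194640 (0.92), AGABI2DRAFT_190326 (0.92), NdufA9 (0.91) and AGABI2DRAFT_193432 (0.91). AGABI2DRAFT_191153 shared with MnP the low level of 245 AMA-7 at pinning (19.8 and 16.5 FPKM) and of 219 30P at the first flush (24.1 and 20.7 FPKM). From day 27 to day 39, however, it rose by 0.80 ± 0.14 in A15, 0.99 ± 0.14 in 245 AMA-7 and 0.51 ± 0.14 in 065 BP-8, and fell by 1.01 ± 0.14 in 219 30P. The call in 065 BP-8 was lost without its replicate 2 of day 39 (0.45, limma, BH-adjusted p = 0.0502). MnP fell in all of them. NdufA9 and AGABI2DRAFT_193432 were among the 5 most like MnP by both measures.

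**Figure D5:**
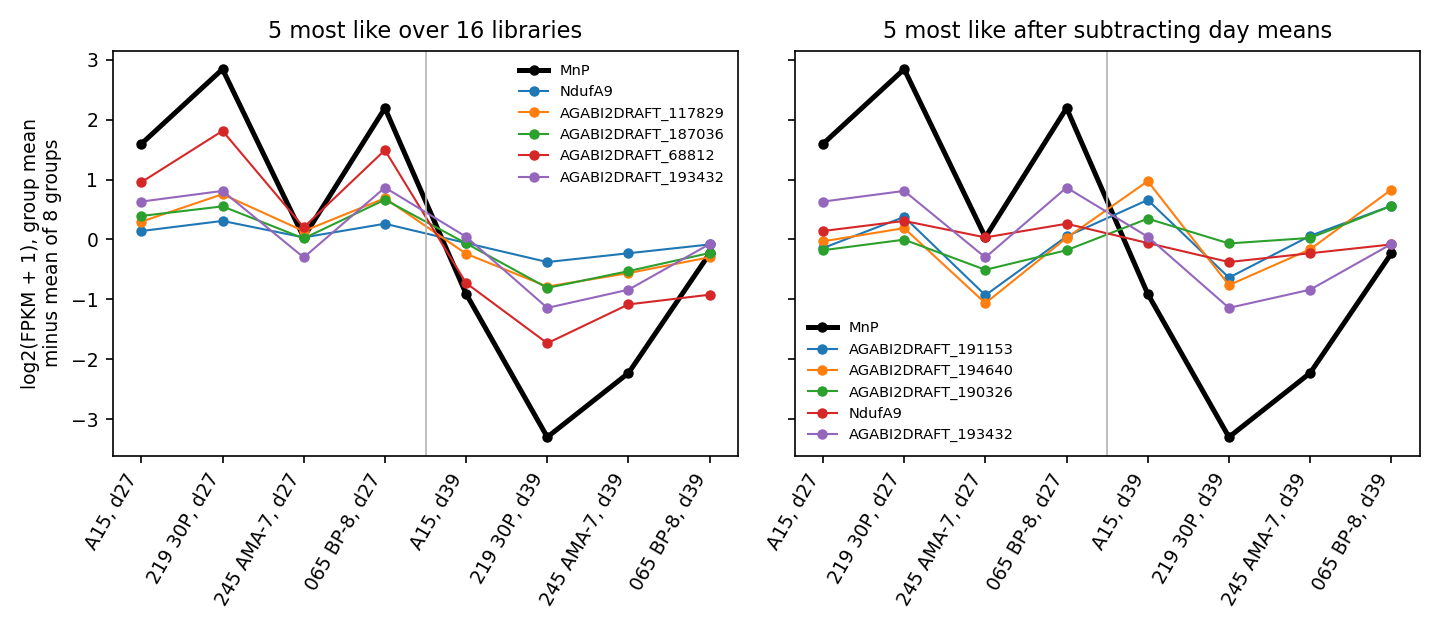
Group means of log2(FPKM + 1), each gene centred on the mean of its 8 groups, for MnP (black) and the 5 genes most like it over the 16 libraries (left) and after subtracting day means (right). On the left every gene is highest at pinning in 219 30P or 065 BP-8 and lowest at the first flush in 219 30P; on the right AGABI2DRAFT_191153, AGABI2DRAFT_194640 and AGABI2DRAFT_190326 are lowest in 245 AMA-7 on day 27 and in 219 30P on day 39, as MnP is, but do not share its fall from day 27 to day 39 in all strains.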

How the data were processed

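Total RNA from duplicate compost samples was extracted by caesium chloride centrifugation and sequenced as Illumina libraries, per the labels' protocols. BWA, Bowtie and RSEM are listed in the submitters' processing notes, without role; no genome build was given in the sources used here. The unit of the deposited values was taken as FPKM (scaled by transcript length and library size). It was inferred: they have decimals, and their sums differ between libraries. Of 10438 identifiers 10373 matched locus tags of the RefSeq assembly Agabi_varbisH97_2, the source of names and gene order.

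Genes listed in all files with a mean of at least 1 FPKM (8818) were tested on log2(FPKM + 1) with limma 3.58.1 (R 4.3.3; trend, 1 mean per group, 16 libraries, 8 residual degrees of freedom), with BH adjustment over all genes tested and a threshold of 0.05. Ratios of genes were tested by exact permutation (Python 3.11.15, numpy 2.4.6). The fit was tested on simulated data. The choice of MnP, the lists and the tests was made with earlier results of these data known. Gene lists were taken by symbol. The genes named were MnP, lcc1, lcc2, list members, the 3 neighbours on each side, and the genes with the highest r to MnP. A planned search for proteins similar to MnP was not run, since no protein sequences were used here. Alternatives were other pseudocounts, filters and scalings, a replicate block, a fit without trend, and leaving out A15 or each library.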

Additional observations from a re-analysis of the deposited data

Results flagged for a closer look

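The change of MnP from day 27 to day 39 differed between strains by a test of that difference (limma F test, BH-adjusted p = 9.82e-05). In pairs of strains, the difference was -3.64 for 219 30P against A15, 3.87 for 245 AMA-7 against 219 30P and 3.71 for 065 BP-8 against 219 30P (log2).

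The same F test also passed for most of the other genes described, as for 70.7% of all genes. Among the laccases its BH-adjusted p was 1.78e-05 for lcc1, 0.000266 for lcc2, 0.000426 for lcc10, 0.000458 for lcc3, 0.000507 for lcc9 and 0.0433 for lcc12. It was 1.07e-05 for Fet3, 0.00279 for PAL1, 0.00318 for C4H1, 0.0243 for CAT3 and 0.0445 for PAL2. Of these, lcc12, CAT3 and PAL2 missed the threshold in several of the fits that left out 1 library, with BH-adjusted p up to 0.12, 0.0547 and 0.225. With a replicate block lcc12 (0.0542) and PAL2 (0.0596) missed it, as both did without a filter on low values (0.0509 and 0.0505) and without the trend (0.0582 and 0.063). It was also missed by lcc12 with a pseudocount of 5 FPKM (0.0524) or quantile normalization (0.0501), and by CAT3 with a pseudocount of 0.1 FPKM (0.0528).

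Among neighbours of MnP the BH-adjusted p was 6.96e-05 for AGABI2DRAFT_192501, 0.000217 for AGABI2DRAFT_221237, 0.00206 for AGABI2DRAFT_192500, 0.00619 for AGABI2DRAFT_192499 and 0.0233 for AGABI2DRAFT_69571, the last being 0.134 after median-ratio scaling and 0.18 after quantile normalization. Among genes like MnP in pattern it was 2.50e-05 for AGABI2DRAFT_194640, 3.10e-05 for AGABI2DRAFT_191153, 6.23e-05 for AGABI2DRAFT_193432, 0.000273 for AGABI2DRAFT_117829, 0.000367 for AGABI2DRAFT_187036, 0.000567 for OSCP/ATP5, 0.000957 for AGABI2DRAFT_68812, 0.00164 for AGABI2DRAFT_190326, 0.00202 for hspD and 0.00871 for NdufA9. With median-ratio scaling that of NdufA9 was 0.515.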

How the results depend on the processing

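The fall of MnP passed in each strain, in their mean and in the F test of strain differences under every alternative run for them, as did the 3 pairs with 219 30P. Leaving out 1 library at a time gave -6.54 to -5.73 in 219 30P, -2.997 to -2.01 in A15, -2.58 to -1.95 in 245 AMA-7 and -2.74 to -2.11 in 065 BP-8. Between strains on 1 day, the same gave 0.75 to 1.74 for 219 30P against A15, -2.05 to -1.06 for 245 AMA-7 against A15 and 0.10 to 1.09 for 065 BP-8 against A15 on day 27. On day 39 it gave -1.56 to -1.08 for 245 AMA-7 against A15 and 0.66 to 1.475 for 245 AMA-7 against 219 30P; the last was 0.73 with a pseudocount of 5 FPKM, 0.89 after scaling by median ratios and 0.88 after quantile normalization, none of which passed. The cause was not tested. Counts of genes called ranged from 2415 to 3855 for 065 BP-8 against A15 on day 27, from 1332 to 2447 for 065 BP-8 against 219 30P on day 27 and from 1945 to 3697 for 065 BP-8 against 245 AMA-7 on day 39; fewer samples entered these fits.

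With quantile normalization the change turned to -0.052 for CAT3 in A15, and to -0.18 in A15 and -0.10 in the mean for AGABI2DRAFT_69571. Pairing by replicate number was not used: deviations of same-numbered replicates correlated by -0.27 to 0.17 over 28 pairs of groups. With a replicate block the mean change of MnP was -3.33, and none of its calls changed. Read counts are not given, so no counting error was set beside the FPKM.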

Other observations

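The differences between duplicates were compared gene by gene with those of MnP, after the values had been seen. In A15 on day 27, replicate 2 exceeded replicate 1 by 0.99 (log2) for MnP, 1.16 for lcc2 and 1.21 for lcc1. In 245 AMA-7 on day 27 it was lower by -0.62, -0.80 and -0.67, and in 219 30P on day 27 by -0.44, -0.85 and -1.27. For lcc1 the direction was that of MnP in 5 of 8 groups. Ranked by the uncentred correlation of these 8 differences with those of MnP, lcc2 stood at place 10 (0.90) and lcc1 at place 140 (0.74). The highest were AGABI2DRAFT_195206 and AGABI2DRAFT_189147 (both 0.95), 2 genes without a name that were picked for this value.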
